A study of Oryza sativa with 4 samples.

Results

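Loci known to set the size and shape of the rice grain, GS3, GW2, GW5, GS5, GL7, GL3.1, D1, DEP1 and SRS3, were followed in paleas by bulk RNA sequencing. They were picked out of the table by locus ID. GS3 (LOC_Os03g29380) was not analysed here, so 8 of the 9 genes have values, out of 55986 genes in the table. Averaged over the 4 genotypes, 7 of these 8 reached 1 FPKM and are called measured below. FPKM is a level per length of transcript and per depth of sequencing.

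The rice grain grows inside a hull made of the lemma and the palea, and the final size of that hull limits the size of the grain. Hull size is set by how many cells its organs form and by how far those cells expand. Genes found through natural variation or mutants in grain size act on these steps through heterotrimeric G proteins, ubiquitin ligases, brassinosteroid signalling, phosphatases and the microtubule cytoskeleton. Some of them promote growth of the hull and others restrain it.

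The palea samples were labelled Osmads6 (a Tos17 retrotransposon insertion line, background given as Nipponbare), Osmads32 (a T-DNA insertion line, background given as AF36), rep1 (a deletion line, background given as japonica) and wild type (background given as japonica). OsMADS6 and OsMADS32 are MADS-box genes of floral patterning, and REP1 is a TCP gene that acts in the palea. Each genotype is 1 sample in GEO but 2 columns in the table, taken here as repeat runs of that sample. The headers number the columns and do not call them runs or libraries, so both words are terms of this report. With n = 1 a genotype, no test could be made and the 2 values of a genotype show only how far its columns differ. The stage of the paleas is not given, nor is the origin of the runs (1 plant or several), and genotype and background cannot be told apart.

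The runs held 37201858 to 55110869 recovered reads. The targeted gene OsMADS6 ran against its labels, with 127 FPKM in the library labelled Osmads6 and 13.5 FPKM in the library labelled wild type, so every direction below is a direction between labelled libraries. OsMADS32 was not reduced under its own label either, with 8.32 FPKM in the library labelled Osmads32 against 7.19 FPKM in wild type, and stood at 14.9 FPKM in Osmads6 and 2.78 FPKM in rep1. REP1 was near 0 in every library, from 0.0338 FPKM in rep1 to 0.201 FPKM in wild type, so its levels do not check the rep1 label. The lemma and palea genes OsMADS1, OsMADS14, OsMADS15 and OsMADS6 were above 1 FPKM in all 4 libraries. OsMADS6 was above wild type in the other 2 labelled mutants as well, at 262 FPKM in Osmads32 and 842 FPKM in rep1. Genes of anther and tapetum summed to 10.8 FPKM in the Osmads6 library, 176 in Osmads32, 269 in rep1 and 212 in wild type, with RTS at 0 reads in Osmads6 only. Genes of dividing cells summed to 45.7, 37.8, 5.34 and 51.0 FPKM in the same order, and to 35.8 and 66.2 FPKM in the 2 wild type runs. CDKB1;1 supplied much of these sums, with 23.0, 18.6, 2.96 and 36.6 FPKM in the same order and 22.5 and 50.7 FPKM in the wild type runs. The wild type runs differed most: 2.31% of 20675 genes differed by at least 2-fold between them, against 0.372% in Osmads6, 0.619% in Osmads32 and 0.813% in rep1.

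The 8 genes fell into a set that varied between the libraries (DEP1, GS5 and GL7), a set that hardly varied (GW2, D1, SRS3 and GL3.1) and GW5, which was close to the detection limit. DEP1, GS5 and GL7 each had their highest level in the library labelled Osmads6 and their lowest in the library labelled rep1. In bulk tissue, more cells of a type and more RNA per cell cannot be told apart. The highest genotype mean was 6.16-fold above the lowest for DEP1, 7.22-fold for GS5 and 4.10-fold for GL7. It was 1.16-fold above the lowest for GW2, 1.15-fold for SRS3, 1.36-fold for GL3.1 and 1.39-fold for D1. A span under 2-fold on the log2(FPKM + 1) scale was the common case, found in 63.2% of the 20675 genes measured.

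**Figure D1:**
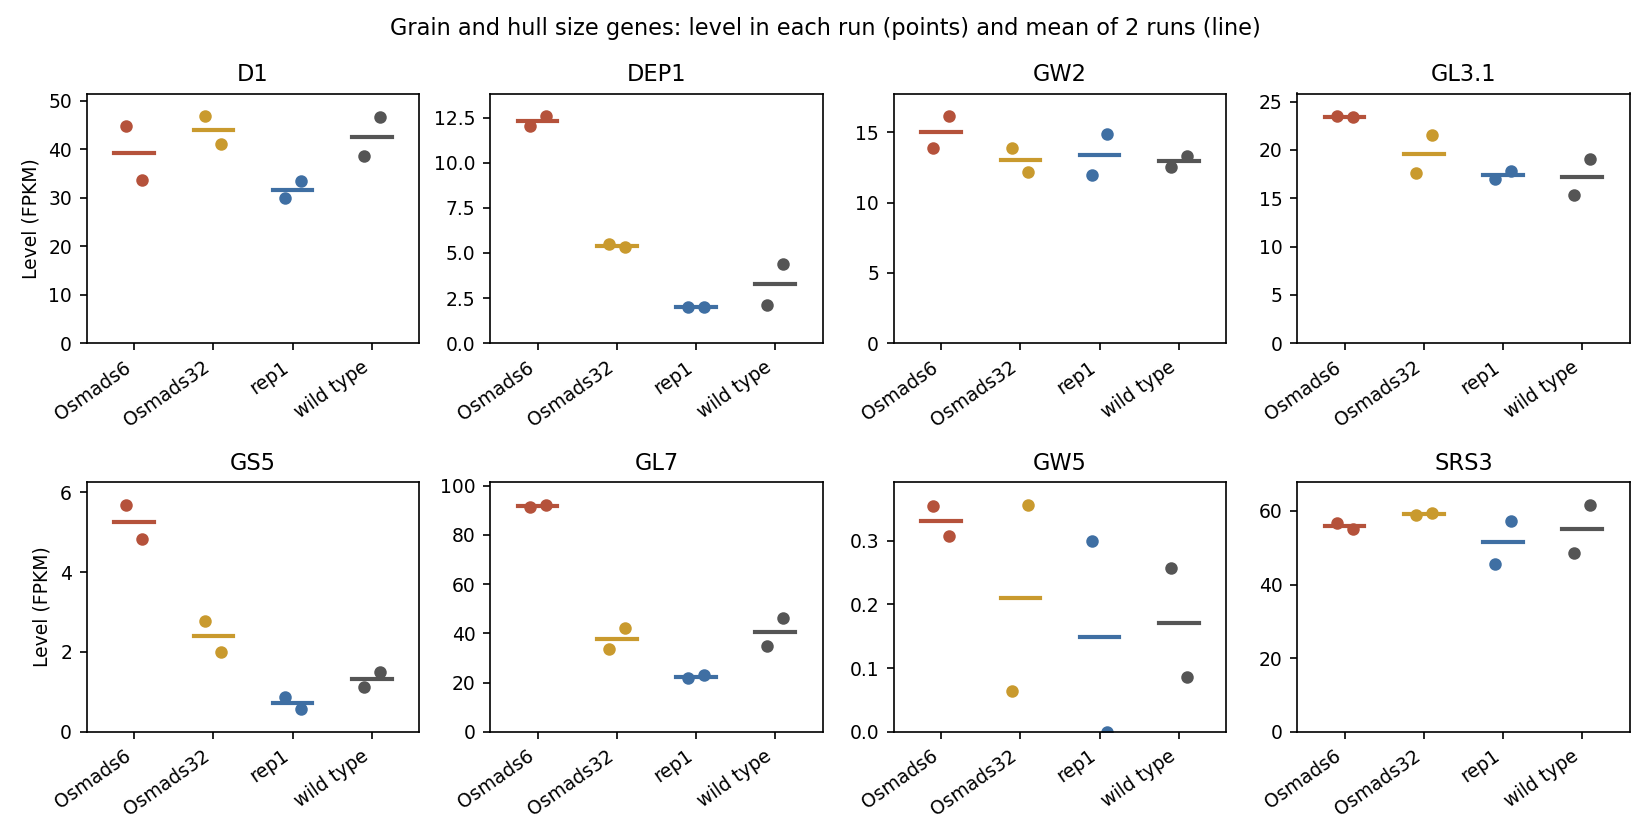
Level in FPKM (vertical axes, from 0, a scale for each gene) of 8 grain and hull size genes in the libraries labelled Osmads6, Osmads32, rep1 and wild type (horizontal axes); points are the 2 runs of a library and lines their mean. DEP1, GS5 and GL7 stand highest in Osmads6 and lowest in rep1, while GW2, SRS3, GL3.1 and D1 span at most 1.39-fold.

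The G protein genes were examined first. D1 (LOC_Os05g26890) encodes the alpha subunit, whose loss makes dwarf plants with short, round grains. D1 stood at 44.7 and 33.7 FPKM in the runs of the Osmads6 library, 46.8 and 41.0 FPKM in Osmads32, 29.9 and 33.3 FPKM in rep1, and 38.5 and 46.5 FPKM in wild type. Only the rep1 runs lay below all others, by 1.24-fold against the Osmads6 mean and by 1.35-fold against the wild type mean. The order of the other libraries, Osmads32, wild type and Osmads6, was not resolved, because the runs of neighbours overlapped.

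DEP1 (LOC_Os09g26999) encodes a gamma subunit, and its alleles change panicle architecture and grain shape. It had 12.03 and 12.6 FPKM in the Osmads6 runs, 5.50 and 5.32 FPKM in Osmads32, 2.01 and 1.99 FPKM in rep1, and 2.12 and 4.40 FPKM in wild type. The libraries therefore ordered as Osmads6, Osmads32, wild type and rep1, with no overlap of runs between neighbours, although the lower wild type run came close to rep1. On means, DEP1 was 3.78-fold higher in the Osmads6 library than in wild type (1962 against 670 reads, 95% counting interval 3.53 to 4.21), 1.66-fold higher in Osmads32 and 1.63-fold lower in rep1.

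The wild type runs of DEP1 differed 2.08-fold. On the log2(FPKM + 1) scale, 5.89% of genes differed at least as much between those runs. The Osmads6 mean was 5.81-fold above wild type run 1 alone and 2.80-fold above run 2 alone. For Osmads32 these folds were 2.56 and 1.23. The rep1 mean was 1.06-fold below run 1 and 2.20-fold below run 2, so the size of the rep1 difference rests on which run is used. Of the genes of dividing cells, CDKB1;1 differed between these runs as given above. CDKB2;1 had 0.826 and 1.61 FPKM in them, CYCB1;1 had 0.522 and 0.813 FPKM and CYCB2;1 had 11.4 and 12.8 FPKM. CYCB2;2 went the other way, with 0.534 and 0.332 FPKM. The part of these genes in the DEP1 values was not tested.

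RGB1 (LOC_Os03g46650), the beta subunit gene, was listed beside the alpha and gamma genes because the 3 proteins form 1 complex. It had 50.3 and 51.6 FPKM in Osmads6, 37.7 and 36.03 FPKM in Osmads32, 23.6 and 26.7 FPKM in rep1, and 29.3 and 40.1 FPKM in wild type. Thus RGB1 was highest in Osmads6 and lowest in rep1 as DEP1 was, but over a narrower span. The level of D1 was 3.18 times that of DEP1 in the Osmads6 library, 8.11 times in Osmads32, 15.8 times in rep1 and 13.1 times in wild type. In single runs this ratio of levels was 3.71 and 2.68 in Osmads6 and 8.51 and 7.71 in Osmads32. It was 14.9 and 16.8 in rep1 and 18.2 and 10.6 in wild type. The Osmads6 runs and the Osmads32 runs each lay apart from all others, while rep1 and wild type overlapped. The ratio of D1 to RGB1 was 0.769 in Osmads6, 1.19 in Osmads32, 1.25 in rep1 and 1.22 in wild type. DEP1 is not the only gamma subunit gene, so the ratio of D1 to DEP1 speaks for DEP1 alone. RGG2 (LOC_Os02g04520), another gamma subunit gene, had 12.2 FPKM in Osmads6, 9.14 in Osmads32, 5.46 in rep1 and 6.29 in wild type. RGG2 thus lay above DEP1 in Osmads32, rep1 and wild type. RGG1 (LOC_Os03g43480), also a gamma subunit gene, averaged 0.797 FPKM over the genotypes.

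**Figure D2:**
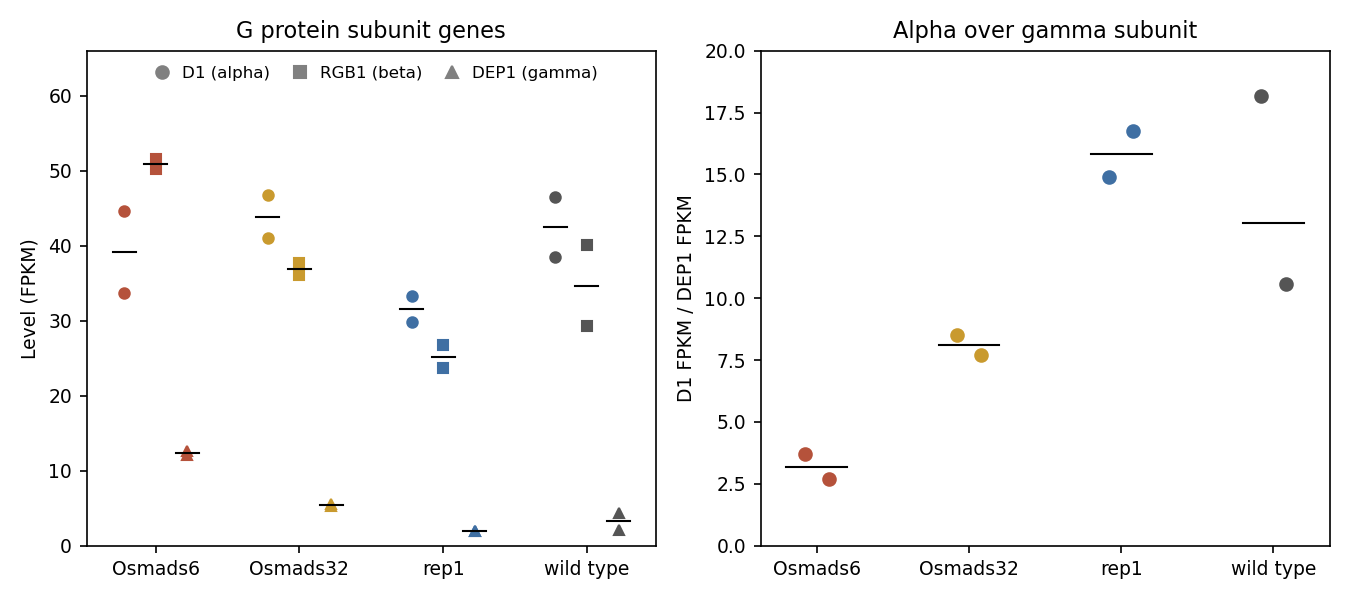
Left, level in FPKM (vertical axis) of D1, RGB1 and DEP1, an alpha, a beta and a gamma subunit gene, in each library (horizontal axis, Osmads6, Osmads32, rep1, wild type). Other gamma subunit genes are not shown. Right, the level of D1 divided by that of DEP1; symbols are runs and lines the library means, which run from 3.18 in Osmads6 to 15.8 in rep1.

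GW2 and GL3.1, a ubiquitin ligase gene and a phosphatase gene, varied little. GW2 (LOC_Os02g14720) encodes a RING-type ubiquitin ligase that restrains grain width by limiting cell number in the hull. Its level was 13.9 and 16.2 FPKM in the Osmads6 runs, 13.9 and 12.2 FPKM in Osmads32, 11.95 and 14.9 FPKM in rep1, and 12.6 and 13.3 FPKM in wild type. Runs overlapped between all neighbours in the order of means. The largest fold, Osmads6 over wild type, was 1.16, and the runs of that pair did not overlap.

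GL3.1 (LOC_Os03g44500) encodes a phosphatase with Kelch repeats that restrains grain length. It stood at 23.5 and 23.4 FPKM in Osmads6, 17.6 and 21.6 FPKM in Osmads32, 17.0 and 17.8 FPKM in rep1, and 15.4 and 19.0 FPKM in wild type. Only the Osmads6 runs lay above all others, 1.36-fold above the wild type mean (6584 against 6321 reads, 95% counting interval 1.32 to 1.42). The other libraries overlapped.

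GS5 and GL7 belong to the genes that promote growth of the grain. GS5 (LOC_Os05g06660) encodes a serine carboxypeptidase and promotes grain width. It was a low gene, with 5.69 and 4.84 FPKM in Osmads6 from 195 and 182 reads, 2.78 and 2.00 FPKM in Osmads32, 0.878 and 0.580 FPKM in rep1 from 32 and 20 reads, and 1.12 and 1.498 FPKM in wild type from 56 and 67 reads. Its libraries ordered as those of DEP1 did, Osmads6, Osmads32, wild type and rep1, again with no overlap of neighbouring runs. That order with runs apart was found in 3.39% of the 20675 genes. Of the 7 measured grain size genes, 2 had it, DEP1 and GS5. The order counted is the one these 2 genes show, so their number cannot be weighed against that share. GS5 was 4.02-fold higher in Osmads6 than in wild type, with a 95% counting interval of 3.28 to 4.99, and 1.82-fold higher in Osmads32. It was 1.80-fold lower in rep1 than in wild type. On the log2(FPKM + 1) scale its ratio for Osmads6 was 1.44, and it was 1.93 with a pseudocount of 0.1, because the pseudocount of 1 is close to the level of this gene.

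GL7 (LOC_Os07g41200) encodes a protein like LONGIFOLIA of Arabidopsis and promotes cell elongation along the length of the grain. It was the most abundant of the 8 genes in the Osmads6 library, where its runs stood at 91.5 and 92.3 FPKM. They stood at 33.5 and 42.3 FPKM in Osmads32, 21.8 and 23.0 FPKM in rep1, and 34.7 and 46.2 FPKM in wild type. Osmads6 lay above and rep1 below every other library, while Osmads32 and wild type overlapped. The Osmads6 mean was 2.27-fold above that of wild type, from 22696 against 13047 reads, and 2.42-fold above that of Osmads32. Against wild type run 2 alone the fold was 1.99, just short of 2, and against run 1 alone it was 2.64. The rep1 mean was 1.80-fold below wild type, 1.55-fold below run 1 alone and 2.06-fold below run 2 alone.

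GW5 (LOC_Os05g09520) encodes a calmodulin-binding protein of the IQD family that restrains grain width. It was close to the detection limit, with 19 and 18 reads in the Osmads6 runs, 4 and 22 in Osmads32, 17 and 0 in rep1, and 20 and 6 in wild type. The level was 0.331 FPKM in Osmads6, 0.210 FPKM in Osmads32, 0.150 FPKM in rep1 and 0.172 FPKM in wild type. The run with 0 reads allows a level of up to 0.0558 FPKM at a limit of 3 reads, which covers counting error only. The Osmads32 runs differed 5.61-fold between themselves, more than the 2.21-fold span of the library means. All neighbours in the order of means overlapped. The Osmads6 runs lay above those of rep1 and of wild type, by 2.21-fold over rep1 (counting interval 1.18 to 4.07) and by 1.93-fold over wild type (1.104 to 3.22), from 37 reads in Osmads6 against 17 in rep1 and 26 in wild type. The runs of the other pairs of libraries overlapped.

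SRS3 (LOC_Os05g06280) encodes a kinesin of the kinesin-13 class, a motor that acts on microtubules, and its mutants have small, round seeds. It stood at 56.8 and 55.0 FPKM in Osmads6, 58.8 and 59.5 FPKM in Osmads32, 45.7 and 57.4 FPKM in rep1, and 48.5 and 61.7 FPKM in wild type. The wild type runs spanned the runs of the Osmads6 and Osmads32 libraries, and differed from each other by more than counting error alone would give. Ranked among all measured genes, SRS3 held nearly the same place in every library, at a percentile of 90.6 in Osmads6, 90.9 in Osmads32, 89.98 in rep1 and 89.99 in wild type. By contrast GS5 stood at a percentile of 34.3 in Osmads6, 18.6 in Osmads32, 4.43 in rep1 and 7.09 in wild type.

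The question of how the 7 measured genes differed as a set was taken up for each labelled mutant against wild type, counting a gene as higher or lower where log2((mutant FPKM + 1)/(wild type FPKM + 1)) passed 2-fold. In the library labelled Osmads6, 3 of 7 genes were higher (DEP1, GS5 and GL7) and 0 were lower. Without wild type run 1, GL7 missed 2-fold (log2 ratio 0.98) and 2 of 7 were higher. Among all 20675 genes, 7.7% were higher and 7.47% lower in this comparison. The log2 ratio of DEP1, 1.64, was above that of 97.4% of all genes, that of GS5, 1.44, above 96.4%, and that of GL7, 1.16, above 94.2%. The median over the 7 genes was 0.43, against -0.01 over all genes. Runs did not overlap in 5 of 7 genes, all higher in Osmads6, and 33.9% of all genes were higher with runs apart. D1 and SRS3 had ratios of -0.12 and 0.02 with overlapping runs. In the same comparison 2 of 5 genes of dividing cells were higher, CDKB2;1 (6.59 against 1.22 FPKM) and CYCB1;1 (4.19 against 0.668 FPKM). CYCB2;2 was higher but short of 2-fold on that scale (1.44 against 0.433 FPKM). CDKB1;1 (23.0 against 36.6 FPKM) and CYCB2;1 (10.5 against 12.1 FPKM) were lower on means, short of 2-fold. The sum of the 5 genes was lower as well (45.7 against 51.0 FPKM). Of 5 genes of anther and tapetum 2 were lower (RTS and OsC6) and 1 higher (TDR). Their part in these ratios was not tested.

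In the library labelled Osmads32, 0 of 7 genes passed 2-fold in either direction, where 1.81% of all genes were higher and 3.34% lower. The largest ratios were those of DEP1 (0.59) and GS5 (0.55), whose runs lay above those of wild type. They were above 93.4% and 92.5% of all genes, and 24.3% of all genes were higher with runs apart. The other 5 genes had ratios between -0.09 (GL7) and 0.18 (GL3.1), with runs that overlapped those of wild type. The median over the 7 genes was 0.10, against -0.03 over all genes. Against wild type run 1 alone, DEP1 passed 2-fold (log2 ratio 1.04), and against run 2 alone its ratio was 0.25. All 3 genes of ovule and carpel identity on the marker list were at least 2-fold higher in Osmads32, with OsMADS13 at 18.5 FPKM against 0.557 FPKM in wild type, and their part in these ratios was not tested.

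In the library labelled rep1, 0 of 7 genes passed 2-fold, where 5.13% of all genes were higher and 8.78% lower. GL7 had the most negative ratio (-0.82), with DEP1 at -0.51, GS5 at -0.42 and D1 at -0.42. The runs of these 4 genes lay below those of wild type, and 40.8% of all genes were lower in that way. The median over the 7 genes was -0.42, against -0.15 over all genes in this comparison. Relative to that shift 6.59% of all genes were higher and 6.7% lower, and still 0 of the 7 passed 2-fold. After this centring GL7 stood at -0.68, DEP1 at -0.36, GS5 at -0.27 and D1 at -0.27. SRS3, with a ratio of -0.09 as deposited, stood at 0.05 after centring, so its sign rests on the scaling. Without wild type run 2, the median of the 7 genes was -0.06, and without run 1 GL7 passed 2-fold (-1.01). Genes of dividing cells were lower by at least 2-fold in 2 of 5 members in rep1, CDKB1;1 and CYCB2;1, with the summed levels given above. OsMADS1 (293 against 635 FPKM), OsMADS15 (25.1 against 72.6 FPKM) and the carpel gene DL (0.499 against 19.1 FPKM) were also at least 2-fold lower in rep1 than in wild type. OsMADS13, another ovule and carpel gene, was instead at least 2-fold higher (10.8 against 0.557 FPKM). So were the lodicule, stamen or carpel genes OsMADS2 (57.0 against 21.4 FPKM), OsMADS4 (11.3 against 3.62 FPKM) and OsMADS3 (14.8 against 4.82 FPKM). OsMADS6, a lemma and palea gene like OsMADS1 and OsMADS15, was at least 2-fold higher too (842 against 13.5 FPKM). OsMADS14, of the same list, was lower but short of 2-fold (37.5 against 62.5 FPKM). The part of these genes in the ratios was not tested.

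**Figure D3:**
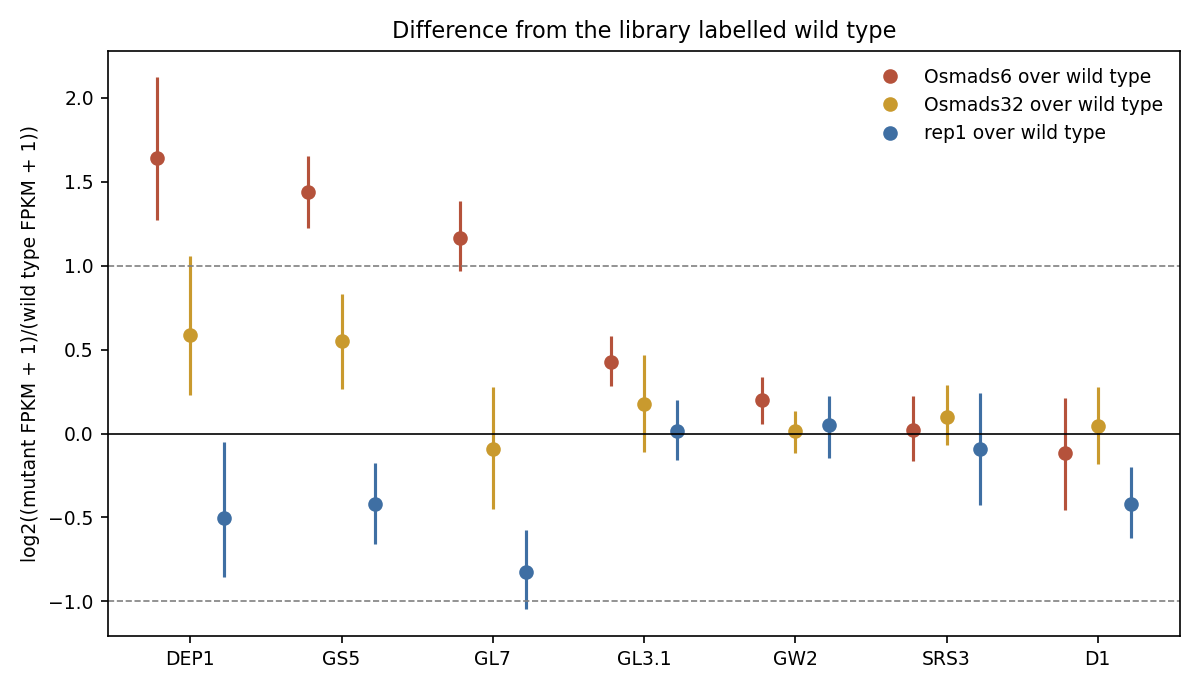
log2((mutant FPKM + 1)/(wild type FPKM + 1)) (vertical axis) of the 7 measured grain size genes (horizontal axis) for the Osmads6, Osmads32 and rep1 libraries over wild type; points are ratios of library means, lines the range over the 4 pairs of runs, and dashed lines mark 2-fold. DEP1, GS5 and GL7 lie above the upper dashed line in Osmads6, and GL7 is the lowest point in rep1 at -0.82.

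The labelled mutants were also set against each other, which does not use the wild type library. Between Osmads6 and Osmads32, 2 of 7 genes were higher in Osmads6, GL7 (2.42-fold) and DEP1 (2.27-fold), and 0 were lower, beside 7.61% and 5.98% of all genes. GS5 was 2.20-fold higher without the pseudocount and had a log2(FPKM + 1) ratio of 0.89, short of 2-fold on that scale. Its runs lay apart, and without Osmads32 run 1 it passed 2-fold, which made 3 of 7 higher.

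Between rep1 and Osmads6, 3 of 7 genes were lower in rep1 and 0 higher, beside 16.6% and 10.7% of all genes. DEP1 was 6.16-fold lower in rep1 (314 against 1962 reads, 95% counting interval 5.47 to 6.97), GS5 7.22-fold lower (5.34 to 9.75) and GL7 4.10-fold lower (3.98 to 4.22). Over the 4 pairs of runs the log2 ratio of DEP1 stayed between -2.18 and -2.12, and that of GL7 between -2.03 and -1.94. These 3 genes therefore differed between the rep1 and Osmads6 libraries by far more than between the runs of either.

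Between rep1 and Osmads32, 1 of 7 genes was lower in rep1, DEP1 at 2.71-fold, and 0 were higher, beside 9.62% and 6.47% of all genes. The median of all genes was -0.10 here. Relative to it DEP1, at -1.10 as deposited, just missed 2-fold, so that 0 of 7 were lower, beside 8.21% of all genes lower and 7.71% higher. GS5 was 3.28-fold lower without the pseudocount, with a log2(FPKM + 1) ratio of -0.97, and counted as lower with a pseudocount of 0.1, which brought the count to 2. GL7 was 1.69-fold lower. D1 was 1.39-fold lower, at 31.6 FPKM in rep1 and 43.9 FPKM in Osmads32, with runs apart.

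Likeness of pattern was measured as the root mean square difference between log2(FPKM + 1) profiles over the 4 libraries, each centred on its own mean, among the 7 genes and 14 other grain size genes. The genes nearest each other were DEP1 and GS5, with a difference of 0.106. Only 0.0726% of all 20675 genes were nearer to DEP1 than GS5 was, and 0.184% were nearer to GS5 than DEP1 was. Next for GS5 was SPL13 (LOC_Os07g32170), a transcription factor gene that promotes grain length, at 0.143. GL7 was nearest to GS5, at 0.233, with 2.2% of all genes nearer. GW2 was nearest to SRS3 (0.108), GL3.1 to GW2 (0.109) and D1 to MPK6 (LOC_Os06g06090), a MAP kinase gene of hull cell proliferation, at 0.119. GW2, SRS3, GL3.1 and D1 varied little in themselves, and any pair of such genes is near on this measure. The measure rests on 4 libraries, is a description, and genes at low level are flattened by the pseudocount.

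A list of 39 other grain size genes gave the surroundings of the 9, and 31 of them were measured. In Osmads6 against wild type, 5 of 31 were higher and 1 lower, with a median of 0.28, beside 7.7% higher and 7.47% lower and a median of -0.01 over all genes. The higher ones were SPL16 (LOC_Os08g41940), which promotes grain width, at 2.20 on the log2 scale, BRD1 (LOC_Os03g40540), an enzyme of brassinosteroid synthesis, at 1.78, PGL2 (LOC_Os02g51320), a helix-loop-helix protein of grain length, at 1.30, and SPL13 at 1.06. GRF4 (LOC_Os02g47280), a growth-regulating factor of grain size, was the fifth, at 1.58, and is named after its values were seen. The lower one was CIN2 (LOC_Os04g33740), a cell wall invertase of grain filling, which had 3.09 and 3.53 FPKM in Osmads6 against 35.8 and 25.8 FPKM in wild type, 9.30-fold lower.

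In Osmads32 against wild type, 2 of 31 were higher and 1 lower, with a median of 0.14, beside 1.81% higher and 3.34% lower and a median of -0.03 over all genes. PGL2 had 50.6 and 56.0 FPKM in Osmads32 against 20.5 and 15.2 FPKM in wild type, and BRD1 had 14.2 and 13.5 FPKM against 3.62 and 4.51 FPKM. CIN2 was 6.29-fold lower. The runs of these genes did not overlap.

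In rep1 against wild type, 0 of 31 were higher and 5 lower, with a median of -0.18, beside 5.13% higher and 8.78% lower and a median of -0.15 over all genes. PGL2 was 10.0-fold lower at 2.26 and 1.30 FPKM, SPL16 6.60-fold lower, BAK1 (LOC_Os08g07760), a co-receptor gene of brassinosteroid signalling, 2.96-fold lower, and SMOS1 (LOC_Os05g32270), an AP2-type transcription factor gene of cell expansion, 2.63-fold lower. GSK2 (LOC_Os05g11730), a kinase that dampens brassinosteroid signalling, was the fifth, with a log2 ratio of -1.05, and is named after its values were seen. The count of lower genes was 4 after centring on the median of all genes or median-ratio scaling, both of which took GSK2 short of 2-fold, and 3 without wild type run 2.

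**Figure D4:**
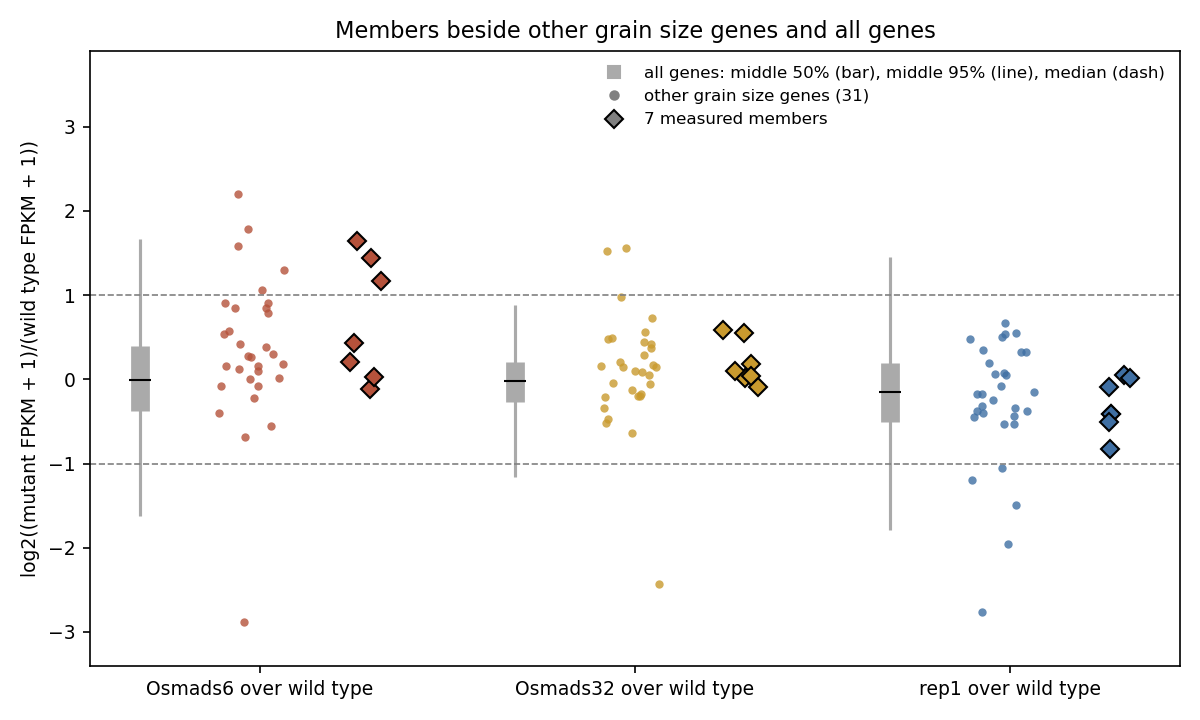
log2((mutant FPKM + 1)/(wild type FPKM + 1)) (vertical axis) for Osmads6, Osmads32 and rep1 over wild type (horizontal axis): grey bars and lines show the spread of all 20675 genes, circles the 31 other grain size genes and diamonds the 7 measured genes of the set. Dashed lines mark 2-fold; 3 diamonds lie above the upper line in Osmads6 and none beyond either line in Osmads32 and rep1.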

How the data were processed

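The table deposited by the authors gives FPKM for 55986 genes, with 2 columns for each of 4 genotypes. The genome build is IRGSP 1.0 per the submitters' processing notes. The aligner, counter and annotation release are not named in the labels. The values of the 2 runs were averaged per genotype. Ratios were taken as log2((mutant FPKM + 1)/(wild type FPKM + 1)) for the 20675 genes averaging 1 FPKM or more across genotypes; folds given for single genes use no pseudocount. With 1 sample per genotype no p-value was computed.

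Whole reads were recovered from the steps of FPKM within 0.02 reads for 44697 of 44713 genes above 0, as the smallest whole numbers that give all values of a gene, a step tested on simulated data. They were used for depth, for the limit of 3 reads and for exact Clopper-Pearson 95% intervals, which cover counting error only. The intervals belong to the fold from pooled reads, which differs a little from the fold of mean FPKM printed beside them. For Osmads6 over wild type these were 3.85 and 3.78 for DEP1, and 1.87 and 1.93 for GW5.

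The table gives no gene names. Symbols came from published rice nomenclature and were checked for chromosome and order in the RefSeq table of assembly ASM3414082v1: 3 of 9 grain size genes (GW2, D1 and SRS3) and 21 of 39 other genes had a matching symbol, and 0 were out of order. Of the others, only matched genes are named (RGG2, without a match, excepted), by a rule: a mean of at least 5 FPKM and up to 4 largest ratios each way past 2-fold. MPK6 is named by likeness of pattern. GRF4, GSK2, RGB1 (the beta subunit gene), RGG1 and RGG2 (gamma subunit genes) are outside these rules. RGG1 and RGG2 were added after their values were seen. Genes, lists and markers were chosen with earlier results of these data known. GS3 is not reported here. Python 3.11.15, NumPy 2.4.6, pandas 2.3.3 and SciPy 1.17.1 were used.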

Additional observations from a re-analysis of the deposited data

How the results depend on the processing

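Direction and side of 2-fold were recomputed with pseudocounts of 0.1 and 0.01, without a filter, with a mean of at least 5 FPKM, after median-ratio scaling, at 1.5-fold, without each run and with the wild type and Osmads6 labels exchanged. Of 21 log2 ratios (7 genes in 3 mutants over wild type), 21 moved by less than their spread over pairs of runs after median-ratio scaling, and 18 with either smaller pseudocount, the 3 that moved being those of GS5. After scaling the medians were 0.41 (Osmads6), 0.13 (Osmads32) and -0.27 (rep1). Centring on the median of all genes, chosen after the values were seen, left rep1 over Osmads32 with 0 lower genes. That and median-ratio scaling left 4 other grain size genes lower in rep1 over wild type, in place of 5. With a pseudocount of 0.1 or 0.01, rep1 over Osmads32 had 2 lower genes in place of 1. At 1.5-fold, the set had 1 gene higher in Osmads32, 1 lower in rep1 and 3 lower in rep1 than in Osmads32, and the list of other grain size genes had 10 higher and 2 lower in Osmads6, 4 higher and 2 lower in Osmads32 and 1 higher in rep1.

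With those labels exchanged, the directions against wild type turn by construction in Osmads6: 0 genes of the set were higher and 3 lower, with a median of -0.43 and ratios of -1.44 for GS5, -1.16 for GL7 and -1.64 for DEP1. Osmads32 then had 2 lower genes and a median of -0.25, and rep1 had 3 lower. Osmads6 over Osmads32 then had 0 higher, and rep1 over Osmads6 had 0 lower. The other grain size genes then had 1 higher and 5 lower in Osmads6, 1 higher and 4 lower in Osmads32, and 2 higher and 12 lower in rep1.

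Leaving out 1 run at a time, genes of the set at least 2-fold higher over wild type numbered 2 to 3 in Osmads6 and 0 to 1 in Osmads32, and those lower 0 to 1 in rep1. The medians ran from 0.29 to 0.58 in Osmads6, from -0.03 to 0.28 in Osmads32 and from -0.53 to -0.06 in rep1 (-0.0563 before rounding, without wild type run 2). Lower genes numbered 1 to 2 in rep1 over Osmads32, and other grain size genes lower in rep1 over wild type numbered 3 to 5. Other grain size genes higher in Osmads6 over wild type numbered 5 to 7, and genes of the set higher in Osmads6 over Osmads32 numbered 2 to 3. The runs whose absence changed a count of the set, or moved one of the other list by over 1.5 times, were wild type run 1 (GL7 in Osmads6 and rep1), wild type run 2 (DEP1 in Osmads32, and the other grain size genes in rep1), Osmads32 run 1 (GS5 in Osmads6 over Osmads32), and Osmads32 run 2 or rep1 run 1 (1 more gene lower in rep1 than in Osmads32).

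No paired analysis was possible because GEO lists 1 sample per genotype and no test was made. The values of GW5, and in rep1 those of GS5, rested on low read numbers.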
